A study of Homo sapiens with 3 samples.

Results

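The zinc-finger gene clusters of human chromosome 19 were examined here as 6 windows of hg19 and compared with the rest of that chromosome. A region belonged to a window when its centre lay inside it. In order along the chromosome, window 1 ran from 11.65 to 12.60 Mb, window 2 from 19.80 to 24.50 Mb, window 3 from 36.50 to 38.40 Mb, window 4 from 44.20 to 45.00 Mb, window 5 from 52.30 to 54.00 Mb and window 6 from 56.50 to 59.10 Mb. They held 768 of the 59983 regions of the series. These were 202 of 13382 CK2α regions, 280 of 24782 RNA polymerase II (Pol II) regions with TBBz and 286 of 21819 Pol II regions with DMSO.

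The material was LNCaP, an androgen-responsive human prostate carcinoma cell line, kept for 3 days in charcoal-stripped serum before 100 nM dihydrotestosterone (DHT), an androgen. Chromatin immunoprecipitation sequencing recovered the DNA bound by Pol II or by CK2α, which is a catalytic subunit of CK2, a protein kinase. All 3 groups received DHT and each was 1 library. The CK2α cells received DHT with no inhibitor, for 2.5 hours by the treatment label and for 90 min by the protocol. The Pol II cells received 25 μM TBBz, a small-molecule inhibitor of CK2, or the vehicle (labelled as 25 μM DMSO) for 2.5 hours, with DHT in the last 1.5 hours. TBBz was the sole means of inhibition, and other actions of the compound cannot be told apart from the loss of CK2 activity. The source label of both Pol II libraries mentions TBBz, and the groups were taken from their treatment labels. The design text names 2 questions, where CK2α binds and how Pol II binding responds to CK2 inhibition.

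C2H2 zinc-finger proteins bind DNA through tandem fingers, each of which contacts a few bases. Most of those encoded on chromosome 19 also carry a KRAB domain, which recruits the corepressor TRIM28 (KAP1) and, through it, enzymes that build H3K9me3 heterochromatin, often on transposable elements. Their genes arose by repeated tandem duplication and stand in clusters, one promoter after another. Pol II starts transcription at promoters and commonly pauses just downstream of the start. CK2 is a kinase that phosphorylates many nuclear proteins.

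In the RefSeq gene table of GRCh38.p14, 262 coding genes of chromosome 19 had a symbol of the ZNF, ZFP or ZSCAN series, 18.1% of the 1451 coding genes of the chromosome and 46.9% of the 559 such genes in the genome. Of these, 238 stood in 12 runs of 5 or more neighbours, with up to 2 other coding genes allowed between neighbours. The longest runs, in order along the chromosome, went from ZNF627 to ZNF791 (24 zinc-finger genes), ZNF101 to ZNF254 (37), ZNF565 to ZNF573 (29), ZNF283 to ZNF180 (20), ZNF577 to ZNF331 (40) and ZNF264 to ZNF446 (47). The lists carry no gene names and are in another build, so no run was matched to a window and no gene is assigned to a region here. The label of the windows could therefore not be checked against a gene annotation of hg19.

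Copies made by duplication can share sequence, and a read that matches several copies has no single place. Among 228 zinc-finger gene promoters of chromosome 19 (250 bases before to 50 after the start, RefSeq, GRCh38.p14), 45 held a 40-base word that also occurs in another promoter of the genome, which is 19.7% (95% interval 14.8 to 25.5%). It was 100 of 957 promoters of the other coding genes of chromosome 19, or 10.4% (8.58 to 12.6%). Promoters in which 50% or more of the words recur numbered 11 and 58 in these groups (4.82% and 6.06%). In the 250 bases before the start, the median GC content was 59.6% for zinc-finger genes (quartiles 55.6 and 64.8%) and 63.6% for the other genes (57.6 and 69.6%), and the median number of CpG dinucleotides was 16.0 and 17.0. The part of shared sequence in the results below was not tested. The most alike neighbours were ZNF714 and ZNF431, both on the plus strand, and their 250 bases before the start are shown 5′ to 3′ to make this likeness visible. Capitals mark the bases that differ, and 230 of 250 bases are identical (92.0%).
ZNF714: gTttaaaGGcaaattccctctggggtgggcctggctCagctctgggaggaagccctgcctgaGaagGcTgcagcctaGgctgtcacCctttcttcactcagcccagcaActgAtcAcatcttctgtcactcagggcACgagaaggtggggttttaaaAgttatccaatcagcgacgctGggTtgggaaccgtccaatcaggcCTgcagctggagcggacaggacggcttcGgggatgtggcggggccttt
ZNF431: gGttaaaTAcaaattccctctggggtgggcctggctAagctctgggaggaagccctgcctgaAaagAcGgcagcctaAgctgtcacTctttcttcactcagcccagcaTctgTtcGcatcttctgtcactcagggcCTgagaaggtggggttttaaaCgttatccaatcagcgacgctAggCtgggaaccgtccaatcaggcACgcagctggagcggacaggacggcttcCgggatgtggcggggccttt
Across the 223 pairs of neighbouring zinc-finger promoters the median identity was 34.9% without gaps, and 6 pairs reached 80% or more. Each pair was taken at the best of many relative shifts, a search that raises the identity also of unrelated sequences. The identity of unrelated promoters under this search was not computed.

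Over all regions, Pol II was thinner in the windows than on the rest of the chromosome and CK2α was denser, but each direction turned under some setting, for CK2α without window 6 and for both Pol II lists without window 2. The windows cover 12.6 Mb, 21.5% of the 58.8 Mb that the lists span on chromosome 19. They held 24.8% of the CK2α regions of the chromosome, 17.3% of the TBBz regions and 19.1% of the DMSO regions. For CK2α the density was 16.0 regions per Mb in the windows and 13.3 on the rest of the chromosome, a ratio of 1.20 (95% counting interval 1.03 to 1.41). For Pol II with TBBz it was 22.2 in the windows and 29.0 on the rest, a ratio of 0.764 (0.671 to 0.869). For Pol II with DMSO it was 22.6 in the windows and 26.2 on the rest, a ratio of 0.865 (0.761 to 0.984). With 1 library per group no spread between replicates is known. All intervals are 95% intervals of counting error alone, and no test between conditions was made.

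These densities rest on single windows. Without window 2 the ratios were 1.64 for CK2α, 1.05 for TBBz and 1.19 for DMSO, and without window 6 they were 0.982, 0.634 and 0.727. In the first 50% of each list, by place in the deposited order, they were 0.955, 0.975 and 1.01. With stretches of 1 Mb or more that hold no region left out of both lengths, the CK2α ratio was 1.07 (0.909 to 1.25), and with regions merged into sites at 2 kb it was 1.16 (0.981 to 1.37), so the excess of CK2α was not beyond counting error under these settings. The same held without window 1, 3 or 5. With the empty stretches left out, the Pol II ratios lay further below 1, at 0.676 (0.594 to 0.769) with TBBz and 0.766 (0.673 to 0.871) with DMSO.

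**Figure D1:**
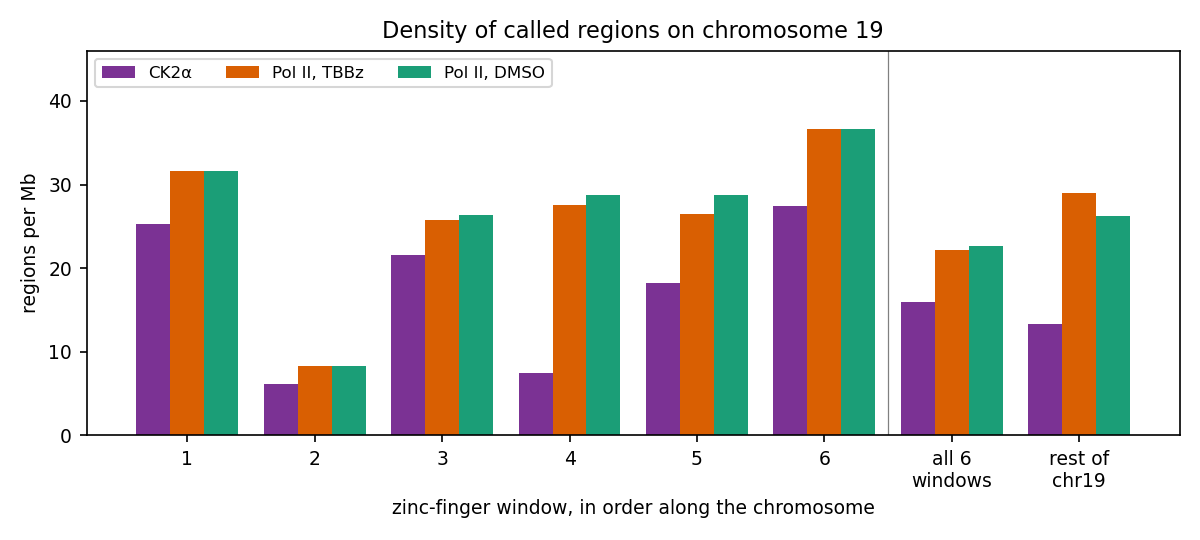
Regions per Mb (y axis) of CK2α, Pol II with TBBz and Pol II with DMSO in each of the 6 zinc-finger windows, in all 6 together and on the rest of chromosome 19; bars are counts of 1 library divided by length. Window 2 has 6.17, 8.30 and 8.30 regions per Mb, and window 4 has 7.50 CK2α regions per Mb beside 27.5 and 28.8 Pol II regions.

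The windows differed widely from each other. Window 6, which ends near the chromosome end, was the densest, with 71 CK2α, 95 TBBz and 95 DMSO regions, or 27.4, 36.7 and 36.7 per Mb. Window 1 came next with 25.3, 31.6 and 31.6 per Mb. Window 2, the longest, held 29, 39 and 39 regions in 4.70 Mb, and 21 of its 47 bins of 100 kb held no region of any list, as did 1 of the 26 bins of window 6 and none in the other windows. The longest stretch without a region in any window was chr19:22034882-22816969 in window 2, 782 kb long. In the other windows the longest such stretch was between 74.1 kb in window 4 and 127 kb in windows 3 and 6. The densest bins were chr19:59000001-59100000 with 5 CK2α, 10 TBBz and 9 DMSO regions, chr19:58900001-59000000 with 7, 8 and 7, and chr19:58000001-58100000 with 6 of each. All of these lay in window 6.

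Pol II regions of the windows mostly stood alone. The median distance between neighbouring regions was 29.8 kb in the windows and 14.2 kb on the rest of the chromosome with TBBz, and 27.6 kb and 16.6 kb with DMSO. With TBBz, 192 of 280 regions in the windows had no other TBBz region within 10 kb, which is 68.6%, against 37.6% on the rest, a difference of 31.0 percentage points (24.9 to 37.0). With DMSO it was 69.9% in the windows and 46.2% on the rest, a difference of 23.7 points (17.7 to 29.8). Neighbours within 2 kb of each other made up 8.76% of neighbouring pairs in the windows and 17.2% on the rest with TBBz, and 7.86% and 11.2% with DMSO. For CK2α regions the median distance was 31.7 kb in the windows and 33.6 kb on the rest. Because the authors' calling kept a candidate when it stood 4-fold above the surrounding 10 kb, a lone site and a site among others did not have equal chances of entering the lists, and the part of this filter was not tested.

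CK2α was found at a larger share of the Pol II regions of the windows. With TBBz, 97 of 280 Pol II regions overlapped a CK2α region by at least 1 bp, which is 34.6% (29.1 to 40.5%), against 240 of 1340 or 17.9% (15.9 to 20.1%) on the rest of chromosome 19. The share over the whole TBBz list was 19.4%. With DMSO it was 102 of 286 or 35.7% (30.1 to 41.5%) in the windows and 296 of 1208 or 24.5% (22.1 to 27.0%) on the rest, with 22.6% over the whole DMSO list. The differences between the windows and the rest were 16.7 points (10.8 to 22.7) with TBBz and 11.2 points (5.10 to 17.2) with DMSO. Counted by centres within 500 bp, 55.7% of the TBBz regions of the windows had CK2α, against 31.2% on the rest, and 57.3% of the DMSO regions, against 38.5%. The number of CK2α regions for each TBBz region was 0.721 in the windows and 0.457 on the rest, and for each DMSO region 0.706 and 0.507.

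**Figure D2:**
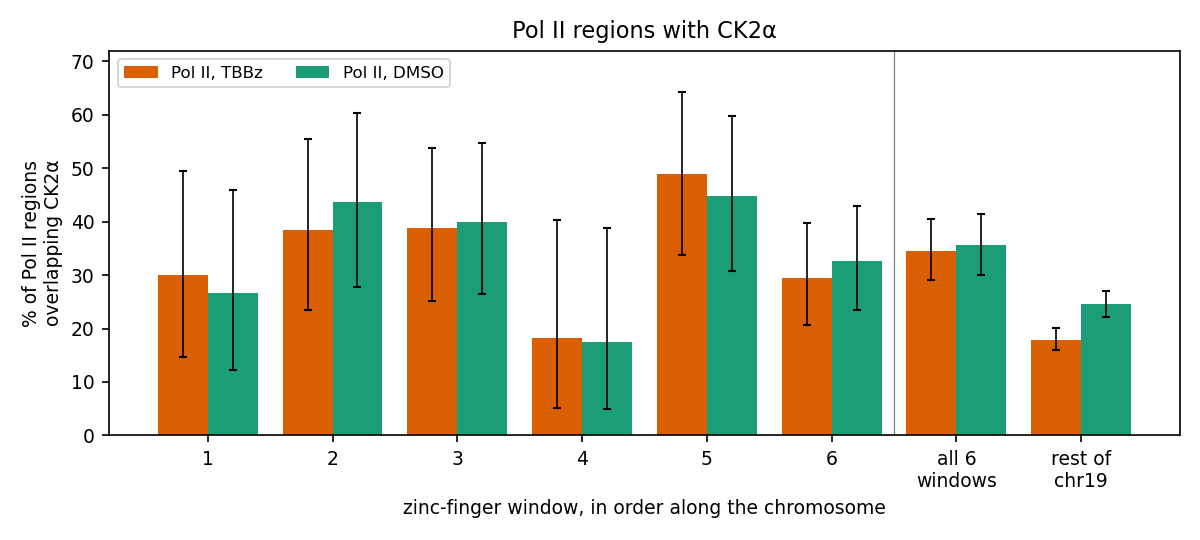
Share of Pol II regions (y axis, %) that overlap a CK2α region in each zinc-finger window, in all 6 and on the rest of chromosome 19, with TBBz and with DMSO; bars are shares and lines are exact 95% binomial intervals. All windows together reach 34.6% and 35.7%, the rest 17.9% and 24.5%, and window 4 has 18.2% and 17.4%.

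Place in the lists and crowding differ between the windows and the rest, so the shares were also set side by side at like values. The authors' score is 1 for every region, and the place in the deposited list was taken to follow strength, which could not be checked for single regions. Nearby places often ran in order of position along the chromosome, so small differences in place need not follow strength. Each Pol II list was divided into 3 equal parts by place. In part 1 of the TBBz list 42.5% of the window regions overlapped CK2α, against 22.7% on the rest. In part 2 it was 30.6% against 18.3%, and in part 3, with 23 window regions, 4.35% against 9.06%. With DMSO the shares were 45.7% in the windows against 29.6% in part 1, 38.0% against 26.7% in part 2 and 15.9% against 14.3% in part 3. The exact intervals of the windows and the rest were apart in parts 1 and 2 with TBBz and in part 1 with DMSO, and they overlapped in part 2 with DMSO and in part 3 of both lists. Among Pol II regions with no other of their list within 10 kb, the difference between the windows and the rest was 16.7 points (8.96 to 24.4) with TBBz and 13.3 points (5.71 to 20.9) with DMSO. When both the CK2α list and the Pol II lists were limited to their first 50%, the differences were 4.75 points (−1.16 to 10.7) and 4.57 points (lower bound −2.83), and both intervals held 0.

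**Figure D3:**
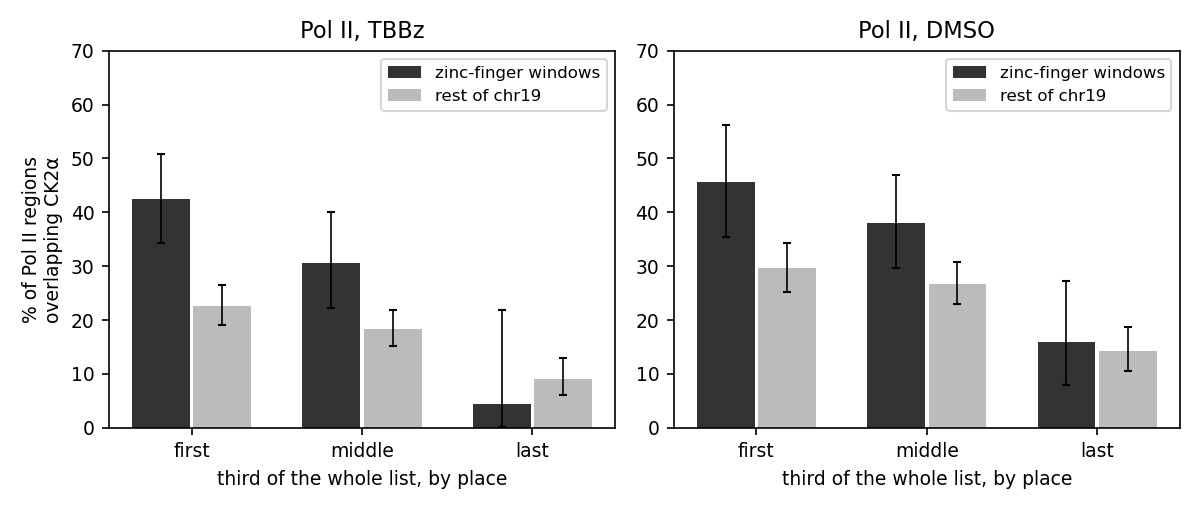
Share of Pol II regions (y axis, %) that overlap CK2α by part of the whole list (x axis, 3 equal parts by place), for the zinc-finger windows and the rest of chromosome 19, with TBBz on the left and DMSO on the right; lines are exact 95% binomial intervals. In the first part the windows reach 42.5% and 45.7%, the rest 22.7% and 29.6%.

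The CK2α regions of the windows stood later in their list than those of the rest of chromosome 19. Their median place was at 53.4% of the list, against 39.9% for the rest, and 8.42% of them were among the first 10% of all CK2α regions, against 16.6%. The windows were thus near the middle of the whole list, and the rest of the chromosome ahead of it. TBBz regions of the windows stood at a median of 32.8%, against 42.0% on the rest, and DMSO regions at 44.2%, against 47.3%. The lists differ in length and depth, and their places were not compared with each other.

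Seen from CK2α, the windows and the rest of the chromosome were closer. Of the 202 CK2α regions in the windows, 97 overlapped TBBz Pol II, which is 48.0% (41.0 to 55.1%), against 39.2% (35.3 to 43.1%) on the rest and 36.0% over the whole list. With DMSO Pol II it was 102 or 50.5% (43.4 to 57.6%), against 48.3% (44.3 to 52.3%) on the rest and 36.8% over the whole list. The differences were 8.87 points (0.969 to 16.8) with TBBz and 2.21 points (−5.74 to 10.2) with DMSO. The TBBz difference was 4.71 points (−3.67 to 13.1) without window 5, 8.25 points (−0.137 to 16.6) without window 2 and 1.58 points (−5.19 to 8.36) where regions had to share 50% of the shorter one, so it rests on these choices. CK2α regions that overlapped Pol II of both treatments made up 43.1% in the windows and 33.6% on the rest. Within 500 bp of a Pol II centre lay 78.7% of the CK2α centres of the windows with TBBz, against 68.2%, and 83.7% with DMSO, against 76.3%. CK2α centres with no Pol II centre of either list within 2 kb numbered 17 of 202 or 8.42% (4.98 to 13.1%) in the windows and 55 of 613 or 8.97% (6.83 to 11.5%) on the rest, against 16.4% over the whole list.

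Where CK2α and Pol II lay near each other, their centres were mostly offset. Among CK2α centres within 1 kb of a TBBz centre the median distance was 178 bp in the windows and 200 bp on the rest. To DMSO centres it was 166 bp and 165 bp. The 2 Pol II libraries were much closer to each other, with a median distance of 20.0 bp from TBBz centres to DMSO centres in the windows and 24.0 bp on the rest. They share their target, and the mean region held 23.5 tags for CK2α, 114 for TBBz and 48.1 for DMSO. The part of tag number in how exactly centres are placed was not tested. Window 1 had the widest offset of CK2α, 302 bp to TBBz and 316 bp to DMSO, and 9 and 8 of its 24 CK2α regions overlapped Pol II while all 24 had a DMSO centre within 1 kb. In window 5 the offset was 122 bp and 125 bp, and 22 of 31 CK2α regions overlapped Pol II of both treatments. A CK2α centre on each side within 1 kb was found for 13 TBBz regions and 14 DMSO regions of the windows (4.64% and 4.90%), against 1.94% and 2.24% on the rest. Among Pol II regions with any CK2α centre within 1 kb, these shares were 7.69% (4.16 to 12.8%) in the windows and 5.14% (3.38 to 7.44%) on the rest with TBBz, and 7.95% (4.42 to 13.0%) and 5.00% (3.32 to 7.19%) with DMSO, with intervals that overlap.

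**Figure D4:**
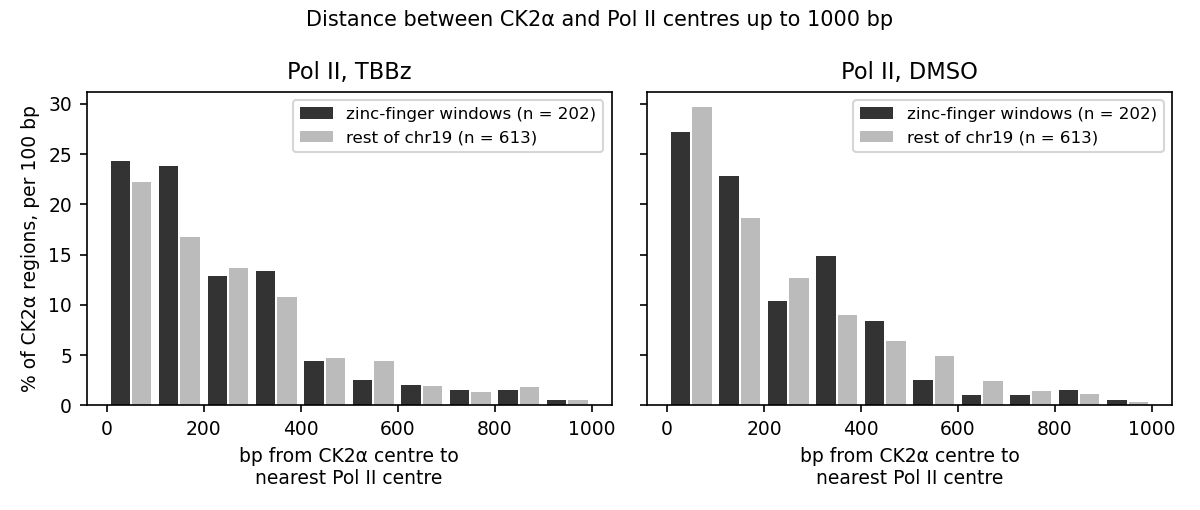
Distance in bp (x axis) from each CK2α centre to the nearest Pol II centre, as the share of CK2α regions per 100 bp (y axis, %), for the zinc-finger windows (202 regions) and the rest of chromosome 19 (613 regions), with TBBz on the left and DMSO on the right. Most distances are below 400 bp in both, with medians within 1 kb of 178 and 200 bp for TBBz and 166 and 165 bp for DMSO.

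Regions of all 3 lists were next joined into sites when neighbouring centres lay within 2 kb. The windows held 301 sites, or 23.8 per Mb, and the rest of the chromosome 1326, or 28.7 per Mb. All 3 lists met at 155 sites of the windows, which is 51.5% (45.7 to 57.3%), against 33.3% (30.7 to 35.9%) on the rest. Pol II of both treatments without CK2α was found at 79 sites (26.2%), against 34.6%. There were 21 sites with TBBz alone (6.98%), against 14.7% on the rest, and 21 with DMSO alone (6.98%), against 7.92%. CK2α alone made up 17 sites and CK2α with DMSO 8, and no site of the windows had CK2α and TBBz without DMSO (0 of 301, upper limit 1.22% by the exact interval), against 11 of 1326 on the rest. Of the sites with Pol II, 163 of 284 or 57.4% held CK2α, against 40.4% on the rest, a difference of 17.0 points (10.7 to 23.4). It was 56.4% against 37.2% when sites were joined at 1 kb and 59.1% against 43.9% at 5 kb.

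Window 4 stood apart from the other windows in the share of its Pol II sites that held CK2α. It held 22 TBBz and 23 DMSO regions but 6 CK2α regions, which gives 0.273 and 0.261 CK2α regions for each Pol II region. Of its 22 Pol II sites, 4 held CK2α, or 18.2% (5.19 to 40.3%), against 159 of 262 or 60.7% (54.5 to 66.6%) in the other 5 windows, where single windows ranged from 54.7 to 70.2%. By overlap of at least 1 bp, CK2α was at 18.2% (5.19 to 40.3%) of its TBBz regions and 17.4% (4.95 to 38.8%) of its DMSO regions. These intervals overlap those of each other window, such as window 6 with 29.5% (20.6 to 39.7%) of TBBz regions. Per Mb, CK2α was thinner in window 2, with 6.17 regions against 7.50. The Pol II regions of window 4 stood later in their lists, at a median of 46.4% with TBBz and 67.0% with DMSO, and none was in the first 10%. The Pol II sites themselves were nearly all common to both treatments, 21 of 22. The window was singled out after its values were seen, and the part that weaker Pol II signal plays was not tested.

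Over the full lists the windows held nearly as many Pol II regions with TBBz as with DMSO. There were 280 TBBz and 286 DMSO regions, a ratio of 0.979 (0.827 to 1.16), and single windows ranged from 0.918 in window 5 upwards, with equal numbers in windows 1, 2 and 6. In the first 50% of each list the ratio was 1.25 (1.02 to 1.53) in the windows and 1.29 (1.16 to 1.43) on the rest. The TBBz list is the longer (24782 against 21819 regions), so its first 50% also holds more regions than that of DMSO. On the rest of chromosome 19 there were 1340 TBBz and 1208 DMSO regions, a ratio of 1.11 (1.03 to 1.20), and over all chromosomes it was 1.14. The ratio in the windows over that on the rest was 0.883 with an interval of 0.736 to 1.06. That interval treats the 2 lists as independent counts although most of their regions overlap, so it cannot decide whether the ratios differ. Regions that overlapped none of the other treatment numbered 53 with TBBz and 59 with DMSO in the windows. On the rest they numbered 445 and 313. The TBBz library was deeper, and divided by the library totals the ratios of all regions were 0.678 in the windows and 0.768 on the rest.

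Pol II sites of the windows were often the same in both treatments. Of the TBBz regions, 227 of 280 overlapped a DMSO region, which is 81.1% (76.0 to 85.5%), against 66.8% (64.2 to 69.3%) on the rest and 65.0% over the whole list. Of the DMSO regions, 227 of 286 or 79.4% (74.2 to 83.9%) overlapped a TBBz region, against 74.1% (71.5 to 76.5%) on the rest and 73.8% over the whole list. The difference between the windows and the rest was 14.3 points (9.04 to 19.5) for TBBz regions and 5.28 points (−0.0195 to 10.6) for DMSO regions. For TBBz regions it was 6.16 points (−0.622 to 12.9) in the first 50% of the lists. By list part, 87.0% of the TBBz regions of the windows were found with DMSO in part 1, against 84.1% on the rest, and 85.6% in part 2, against 67.2%. In part 3 it was 21.7% of 23 regions, against 36.2%. Of the Pol II sites, 82.4% were found in both treatments in the windows and 70.7% on the rest, a difference of 11.7 points (6.61 to 16.8).

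**Figure D5:**
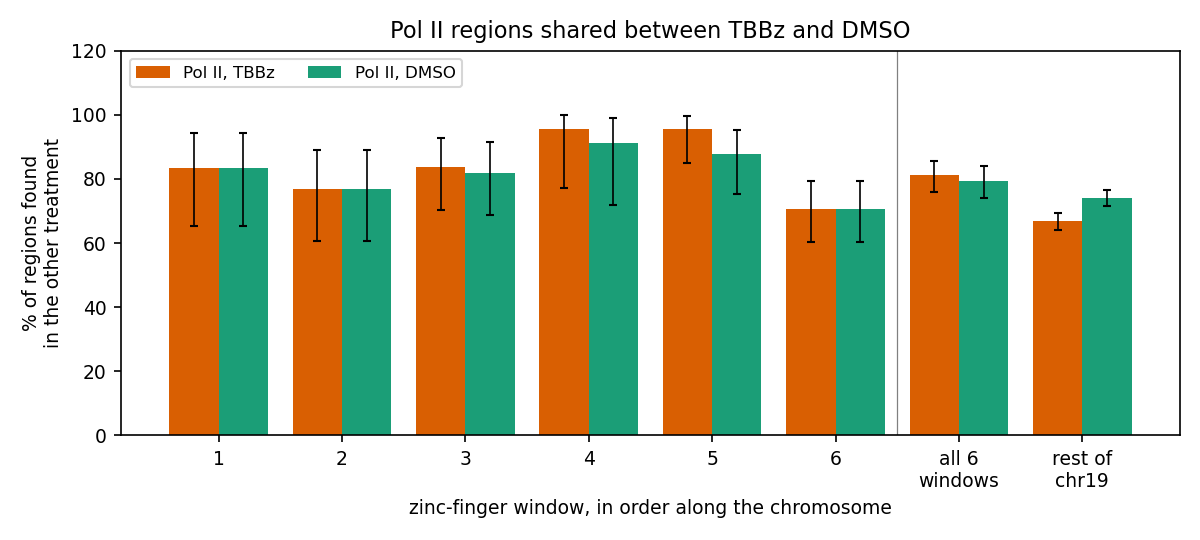
Share of Pol II regions (y axis, %) that overlap a region of the other treatment in each zinc-finger window, in all 6 and on the rest of chromosome 19; orange bars are TBBz regions found with DMSO, green bars DMSO regions found with TBBz, and lines are exact 95% binomial intervals. Windows 4 and 5 reach 95.5% and 95.6% of TBBz regions, and window 6 has 70.5% in both directions.

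Sharing was highest in windows 4 and 5, where 21 of 22 and 43 of 45 TBBz regions overlapped a DMSO region. It was lowest in window 6, with 67 of 95 regions in either direction (70.5%), near the value of the rest of the chromosome. Window 2 had 30 of 39 in either direction (76.9%). Without window 6 the difference for TBBz regions was 19.7 points.

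Pol II regions with no partner of the other treatment within 2 kb were few in the windows. With TBBz they numbered 22 of 280 or 7.86% (4.99 to 11.7%), against 17.1% (15.1 to 19.2%) on the rest of chromosome 19 and 21.1% over the whole list, a difference of −9.23 points (−13.0 to −5.49). With DMSO they numbered 32 of 286 or 11.2% (7.78 to 15.4%), against 14.7% on the rest and 13.9% over the whole list, a difference of −3.55 points (−7.71 to 0.618). The median place of these regions was at 71.4% of the list with TBBz and at 88.2% with DMSO. Windows 4 and 5 had no such TBBz region. CK2α lay within 1 kb of 0 of these 22 TBBz regions (upper limit 15.4% by the exact interval) and of 8 of the 32 DMSO regions. On the rest of the chromosome it lay that near to 11 of 229 TBBz and 64 of 178 DMSO regions.

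The first TBBz regions without a DMSO partner were chr19:59071028-59071228, chr19:59069753-59069953 and chr19:36504985-36505185, at places 2651, 3854 and 6981 of the list. Each lay between 3379 and 4823 bp from a DMSO centre, so that all 3 stood beside Pol II that was called with DMSO as well. The first 2 fell in the densest bin of window 6, and the other lay near the lower edge of window 3. The first DMSO regions without a TBBz partner, at places 16590, 17162 and 17163 of the DMSO list, were chr19:11698606-11698806, chr19:58270608-58270808 and chr19:58765786-58765986, at 9638, 3840 and 16720 bp from a TBBz centre. The first of them had a CK2α centre 452 bp away.

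The leading Pol II regions of the windows were common to both treatments. The TBBz region chr19:59055791-59055991 in window 6, at place 245, and the DMSO region chr19:59055759-59055959, at place 207, were 32 bp apart, with a CK2α centre 286 and 318 bp away. In window 3 the TBBz region chr19:36500184-36500384 at place 196 and the DMSO region chr19:36500162-36500362 at place 348 were 22 bp apart, and the leading CK2α region of that window, chr19:36500218-36500418 at place 315, lay 34 and 56 bp from them. The centres of these regions lay 261 to 317 bp inside the lower edge of window 3, so they stand at the border of that window. The first TBBz region of all windows was chr19:11708244-11708444 in window 1, at place 184, with a DMSO centre 10 bp away. The first CK2α region of window 1, chr19:11708605-11708805 at place 4161, lay 361 bp from it. The DMSO region chr19:58898580-58898780 in window 6, at place 326, had a TBBz centre 2 bp away and the nearest CK2α centre at 8419 bp.

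The distance of CK2α from the leading Pol II regions of the windows varied widely. In window 1 the first DMSO region, chr19:12146368-12146568 at place 779, had a TBBz centre 13 bp and a CK2α centre 211 bp away. In window 2 the first TBBz region, chr19:19843761-19843961 at place 2115, had a DMSO centre 9 bp away and the nearest CK2α centre at 24413 bp. The first DMSO region there, chr19:23578115-23578315 at place 2560, had a TBBz centre 7 bp and a CK2α centre 60 bp away. In the CK2α list windows 1 and 4 began at places 4161 and 4168. These places stand in a stretch that runs in order of position, so the 2 regions need not differ in strength. Window 4 began latest in both Pol II lists. Its first TBBz region, chr19:44716621-44716821, stood at place 8834 with CK2α at 159 bp, and its first DMSO region, chr19:44258848-44259048, at place 9134 with CK2α at 16 bp. In window 5 the first regions were chr19:52873101-52873301 for CK2α at place 1550, chr19:52693270-52693470 for TBBz at place 2118 and chr19:53073464-53073664 for DMSO at place 3658. Each had partners of both other lists within 107 bp.

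The first 3 CK2α regions of the windows in list order all lay in window 6, and only the first of them stood far from Pol II. The first was chr19:57149417-57149617, at place 39 of 13382, and the closest Pol II centres lay at 42804 bp with TBBz and at 42824 bp with DMSO. It also bordered the longest stretch of window 6 that holds no region. The next were chr19:59066403-59066603 at place 58, 190 bp from a TBBz centre and 29 bp from a DMSO centre, and chr19:57791705-57791905 at place 160, 79 and 471 bp away. Of the 17 CK2α regions of the windows with no Pol II centre within 2 kb, 11 lay in window 6, and 2 each in windows 2, 3 and 4. The next in list order were chr19:58828939-58829139 at place 2252 and chr19:44293281-44293481 at place 4168. The second of these was the first CK2α region of window 4, with Pol II 33502 bp away with TBBz and 33508 bp with DMSO.

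The first CK2α region of window 2 coincided with Pol II almost to the base. It was chr19:24183588-24183788, at place 507, with a TBBz centre 0 bp and a DMSO centre 3 bp away. A second such region, chr19:24184888-24185088 at place 3002, had them at 1 and 5 bp. Within 5 bp of both Pol II lists lay 3 of the 202 CK2α centres of the windows and 4 of the 613 on the rest, the other one in the windows being chr19:57999073-57999273. These were chosen after their values were seen. The calling used no control library, and binding cannot be told apart here from background shared by the libraries.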

How the data were processed

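The submitters' processing notes name Bowtie and HOMER, with versions not given in the sources used here. The 3 region lists are on hg19. Each library was called on its own by the authors with HOMER, per the file headers (factor style, size 200 bp, minimum distance 500 bp, fragment length 150 bp, false discovery rate 0.001, no control library named) and candidates less than 4-fold above their 10 kb surroundings were removed: 76.2% for CK2α, 35.3% for TBBz and 53.7% for DMSO. The libraries held 19021404, 22345614 and 15466579 tags, and the mean region held 23.5, 114 and 48.1 of them. The deposited score is 1 in every region, so place in the list served as order. All regions of the windows were 201 bp wide. Starts, counted from 0 in the files, were raised by 1.

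Overlap meant at least 1 bp, and distances run between centres. The rest of the chromosome is the span of the lists minus the windows. Intervals of shares are exact (Clopper-Pearson); those of differences and density ratios are normal (ratios on the log scale), and those of number ratios were converted from exact binomial intervals. All cover counting error only, since each group was 1 library, and they treat neighbouring regions as independent counts. Those of number ratios also treat the lists compared as independent, although these share regions. Tags of PCR copies are not independent either, and the intervals do not cover this. No p-value was drawn.

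The windows and comparisons were chosen with earlier results of these data known. Named regions were the first 3 of each list in the windows, the first of each list in each window, the first 3 without a partner within 2 kb, the 3 densest bins of 100 kb and the longest empty stretch. The functions were tested on simulated lists. Computations used Python 3.11.15 with SciPy 1.17.1, NumPy 2.4.6 and pandas 2.3.3, and figures Matplotlib 3.10.9.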

Additional observations from a re-analysis of the deposited data

How the results depend on the processing

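Of 135 values recomputed under other settings, 111 stayed within the interval of the value reported. Limiting the analysis to regions with no other of their list within 10 kb was a setting added once the data had been seen; all others were planned. Region density depended most on the setting. For CK2α its ratio was 0.955 in the first 50% of the list, 0.982 without window 6 and 1.64 without window 2. For TBBz it was 0.975, 0.634 and 1.05, and 1.39 for regions alone within 10 kb. For DMSO it was 1.01, 0.727 and 1.19, and 1.31 for regions alone within 10 kb. The TBBz to DMSO ratio of region numbers was 1.25 in the windows and 1.29 on the rest in the first 50% of the lists, where the TBBz part is the longer. On the rest it was 1.02 with the TBBz list shortened to the DMSO length and 0.903 for regions alone within 10 kb.

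By list part, the CK2α share at Pol II regions was lower in the windows in part 3 of the TBBz list (4.35% of 23 regions, against 9.06%). The difference in CK2α share at Pol II regions was above 0 under every setting recomputed here, but not always beyond counting error. It was 4.75 points with TBBz (from −1.16) and 4.57 with DMSO (from −2.83) in the first 50% of the lists, 7.13 (2.39 to 11.9) and 4.27 (−0.762 to 9.29) where regions had to share 50% of the shorter one, and 24.5 and 18.8 with centres within 500 bp. The share of CK2α regions on DMSO Pol II differed by 11.2 points (−0.252 to 22.6) in the first 50% of the lists. At the lowest this difference was −2.46 points (−9.62 to 4.71), where regions had to share 50% of the shorter one. TBBz regions found with DMSO differed by 6.16 points in the first 50% and by 19.7 without window 6. Longer distances admit more partners by construction; other causes were not tested. No analysis paired by replicate was possible because there is 1 library per group, and for that reason no replicate could be left out. The effect of depth was not tested, since no tags per region were at hand.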
